A study of Mus musculus with 5 samples.

Results

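The SOCS family comprises the suppressors of cytokine signalling Socs1 to Socs7 and the related gene Cish. Its members were taken by gene symbol from a count table of 41388 mouse genes, and all 8 were found. RNA had been sequenced from microglia, which are macrophages that reside in the brain. The C57Bl/6 mice were 4 weeks old, had received 2 mg of tamoxifen on postnatal days 14 and 16, and their cells were sorted for eYFP, a yellow fluorescent reporter. The control group, with 2 libraries, has the genotype eYFP-A20fl/wt Cx3cr1-CreERT2/+. It combines 1 floxed A20 allele with a Cre recombinase that tamoxifen activates and the Cx3cr1 locus drives, and the series describes its microglia as only partly lacking A20. The A20 deletion group, with 3 libraries, has the genotype eYFP-A20Dmg, and is described as lacking A20 entirely. Both groups thus carry the reporter and were given tamoxifen, and the label of the deletion group does not name its Cre driver. Cx3cr1 is also active in other macrophages and in monocytes. Whether each library came from its own animal or from pooled animals is not stated, and p-values here therefore reflect only the spread between these libraries, which may be technical.

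SOCS proteins are feedback inhibitors of cytokine receptors that signal through JAK kinases and STAT transcription factors. Activated STATs induce several of the SOCS genes. SOCS proteins bind receptors or kinases through an SH2 domain and recruit a ubiquitin ligase through their C-terminal SOCS box. SOCS1 and SOCS3 can also inhibit the kinase directly, SOCS1 being best known for restraining interferon signalling and SOCS3 for restraining receptors that contain gp130. CIS, the product of Cish, and SOCS2 act mainly on receptors that use STAT5. In microglia and macrophages some SOCS genes respond to interferons, interleukins and bacterial products. A20 is the product of Tnfaip3, edits ubiquitin chains and limits NF-kB activation.

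Promoter sequence is shown for 3 members whose regulation by STATs or interferon is textbook knowledge, to show the letters through which that regulation is thought to act beside levels that did not pass the test. RefSeq (build GRCm38.p6) promoters of 300 bases were on hand for Socs1, Socs3, Socs4 and Cish. They were searched on both strands for TTCNNNGAA, the core of a STAT binding motif that reads the same on both strands, and for GAAA and GAAA separated by any 2 bases, the core of the interferon-stimulated response element. Capitals mark the matches. Of all 32851 mouse promoters of that length in the same table, 8.3% hold the first motif and 3.44% the second. The Socs1 sequence is the 250 bases before the start site on the minus strand at chr16:10785537-10785786, which GENCODE M21 annotates with no exon. The Socs3 window lies on the minus strand at chr11:117969502-117969531, outside exons, and the Cish window on the plus strand at chr9:107296659-107296688, inside a noncoding exonic stretch.
Socs1: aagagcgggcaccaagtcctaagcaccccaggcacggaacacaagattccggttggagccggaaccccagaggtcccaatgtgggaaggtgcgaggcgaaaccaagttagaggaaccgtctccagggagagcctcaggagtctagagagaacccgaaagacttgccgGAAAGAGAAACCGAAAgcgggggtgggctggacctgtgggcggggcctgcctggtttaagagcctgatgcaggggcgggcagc
Socs3: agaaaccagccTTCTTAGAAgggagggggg
Cish: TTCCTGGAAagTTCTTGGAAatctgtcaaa
Socs1 held 2 overlapping matches of the interferon motif, at -83 to -74 and -77 to -68 from the start site, and 0 of the STAT motif. Socs3 held 1 STAT match at -154 to -146, and Cish held 2 in tandem that begin at the start site. The Socs4 promoter held neither. A match is a description of letters, not evidence of binding.

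Libraries held between 9726334 and 15275199 counts. The targeted gene Tnfaip3 stood at 454 and 94.7 CPM (counts scaled to a common library size) in control replicates 1 and 2 and at 295, 277 and 348 CPM in deletion replicates 1 to 3, with no detected difference (log2 fold change 0.16, SE 0.55, edgeR adjusted p = 0.881). These are counts over the whole gene, and the floxed exons are not named in the labels, so they neither verify nor contradict the deletion. The 8 microglia markers summed to 48316 and 52954 CPM in the controls and to 38306, 38453 and 34838 CPM in deletion replicates 1 to 3, so that every deletion library was lower. Of these markers 0 rose and 1, Fcrls, fell, against 2.08% and 0.507% of all genes tested. By edgeR 6 had an unadjusted p under 0.05, all lower, against 21% of all genes tested in either direction. The 7 monocyte markers summed to 22.1 and 26.7 CPM in the controls and between 31.9 and 58.3 CPM in the deletion libraries. Of 5 tested, 1 (Plac8) rose and 0 fell, against 2.08% and 0.507% of all genes tested. The rise of this sum lay mostly in Plac8, which had 2.99 and 2.63 CPM in the controls against 30.7, 16.7 and 27.1 CPM. Ly6c2 had 1 and 0 counts in the controls against 12, 7 and 12 in deletion replicates 1 to 3. It passed the filter on low counts only through deletion libraries and was not called (edgeR adjusted p = 0.122). For F13a1 and Chil3 the groups overlapped. Ccr2, on the same list, was lower in every deletion library. It had 11.5 and 8.21 CPM in the controls against 8.14, 5.19 and 5.50 CPM and did not pass. The 12 T and NK cell markers summed to at most 1.41 CPM in the controls and to between 4.18 and 9.10 CPM in the deletion libraries. Of these, Cd4 had 0.569 and 1.03 CPM in the controls against 3.99, 2.67 and 2.75 CPM in deletion replicates 1 to 3. Cd3e, Cd3g, Cd3d and Trac had 0 counts in both controls and between 1 and 9 in each deletion library. Klrb1c had 4 and 6 counts in the controls against 5, 1 and 0. The part of such cells in the results below was not tested. Deletion replicates 2 and 3 stood apart from the other libraries. Mitochondrially encoded transcripts took 4.63% and 3.56% of their counts, against 0.847% to 1.19% in the other libraries. Genes above the median exon length took 37.8% and 38.5% of their counts over tested genes, against 44.9% to 47.9%.

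Of the 8 members, 0 passed an adjusted p of 0.05 by edgeR, where 2.59% of the 12240 genes tested passed (2.08% higher and 0.507% lower). At an unadjusted p under 0.05 there were 2 members, Socs2 and Socs5, against 21% of all genes. DESeq2, limma-voom and a fit with the replicate number as a block called 0 members as well, with 4.88%, 1.72% and 2.12% of genes called. Without the filter on low counts Socs2 and Socs5 were called, in a fit that called 8.22% of all genes. In 4 members (Socs1, Socs5, Socs6 and Cish) the groups did not overlap, against 40.2% of all genes tested. The median log2 fold change of the members was 0.34, against 0.05 for all genes. All 8 passed the filter on low counts, Socs2 and Cish only through libraries of the deletion group, where they were high. The median includes both, at log2 fold changes of 2.59 and 1.61, and so is no measure of a shift of the family.

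**Figure D1:**
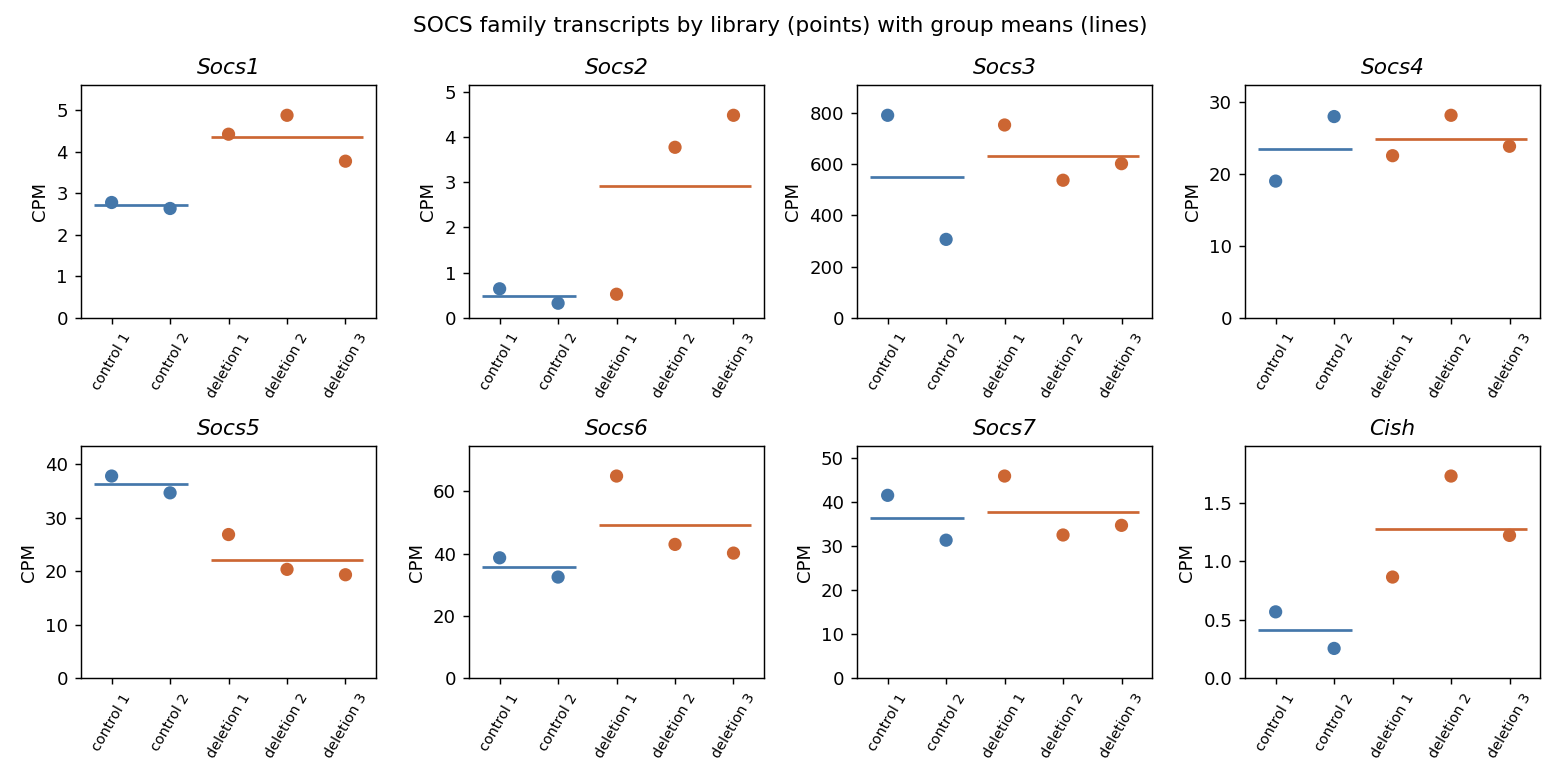
Each panel plots the CPM of a SOCS family gene (vertical axis from 0) in the 2 control and 3 A20 deletion libraries (points), with lines at the group means. Socs5 lies between 34.6 and 37.8 CPM in the controls and between 19.4 and 26.9 CPM in the deletion libraries, while Socs2 reaches 3.77 CPM or more only in deletion replicates 2 and 3.

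The family was dominated by Socs3. Per kilobase of exon, which allows genes of different length to be compared, Socs3 had a level of 207 ± 67.1 CPM per kb (SD over 5 libraries) and was 40.4-fold above the next member. Socs7, Socs5, Socs6 and Socs4 followed at 5.12 ± 0.861, 4.33 ± 1.29, 3.86 ± 1.09 and 3.53 ± 0.562 CPM per kb. The ranges of neighbours among these genes overlapped, so their order is not resolved beyond the spread between libraries. Socs1 came below all of them at 1.27 ± 0.34 CPM per kb, without overlap. Socs2 and Cish were lowest at 0.204 ± 0.211 and 0.145 ± 0.0892 CPM per kb and overlapped each other. Dividing by the longest transcript instead exchanged the places of Socs6 and Socs7 and left the other 6 members at their ranks.

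**Figure D2:**
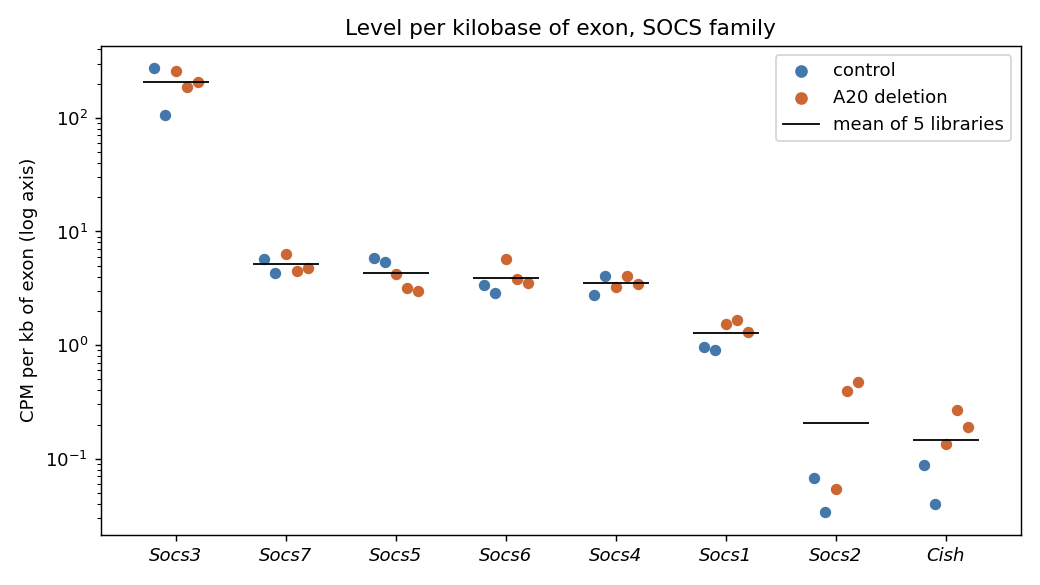
Levels of the SOCS family in CPM per kb of exon on a log axis, with 1 point per library and a line at the mean of the 5 libraries. Socs3 lies at or above 106 CPM per kb in every library, and no other member exceeds 6.32.

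Socs3 (GRCm38 chromosome 11, 117966079 to 117970047) encodes the inhibitor of gp130 receptors. It was counted at 792 and 306 CPM in control replicates 1 and 2 and at 754, 538 and 603 CPM in deletion replicates 1 to 3. The controls thus lay on both sides of every deletion library. The log2 fold change was 0.20 (SE 0.38, 95% interval -0.68 to 1.09, edgeR adjusted p = 0.767). Leaving out control replicate 1 gave 0.9996 (adjusted p = 0.306), whereas leaving out control replicate 2 gave -0.38 (adjusted p = 0.56), so its direction depended on which control was used. Socs3 made up 84.9% and 70.3% of the family's CPM in the controls and between 80% and 82.5% in the deletion libraries.

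The low Socs3 level of control replicate 2 was shared with immediate-early genes, which respond within minutes to stimuli that include cell isolation. The pattern counted here, and Fos as its example, were chosen after the values were seen. Of 32 immediate-early and cell isolation genes, 28 (87.5%) had their lowest level in control replicate 2, against 18.5% of all genes tested. In 12 of them control replicate 1 was also the highest library, as for Socs3, against 1.74% of all genes. The exceptions, Nr4a2, Nr4a3, Hspa1a and Hspa1b, were lowest in control replicate 1. Hspa1a had 8.18 and 36.6 CPM in control replicates 1 and 2, and Hspa1b had 7.47 and 68.0 CPM. The 32 genes summed to 33153 and 8810 CPM in control replicates 1 and 2 and to 29871, 25163 and 24786 CPM in deletion replicates 1 to 3. Fos, which encodes a subunit of AP-1, had 4638 and 1240 CPM in the controls and between 4332 and 4671 CPM in the deletion libraries. None of the 32 genes passed the test by edgeR, where 2.59% of all genes tested passed. An unadjusted p under 0.05 was reached by 8, all higher, against 21% of all genes in either direction. The part of these genes' shared variation in the Socs3 values was not tested. Control replicate 2 was the lowest library for 6 of the 8 SOCS members too, but among these only Socs3 was also highest in control replicate 1. For Socs1, Socs6 and Cish both controls lay below every deletion library, so that a control had to be the lowest. The same held for Egr2, Egr3, Dusp2, Nr4a1, Klf4, Ccl3 and Ccl4 among the 28 genes counted above.

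**Figure D3:**
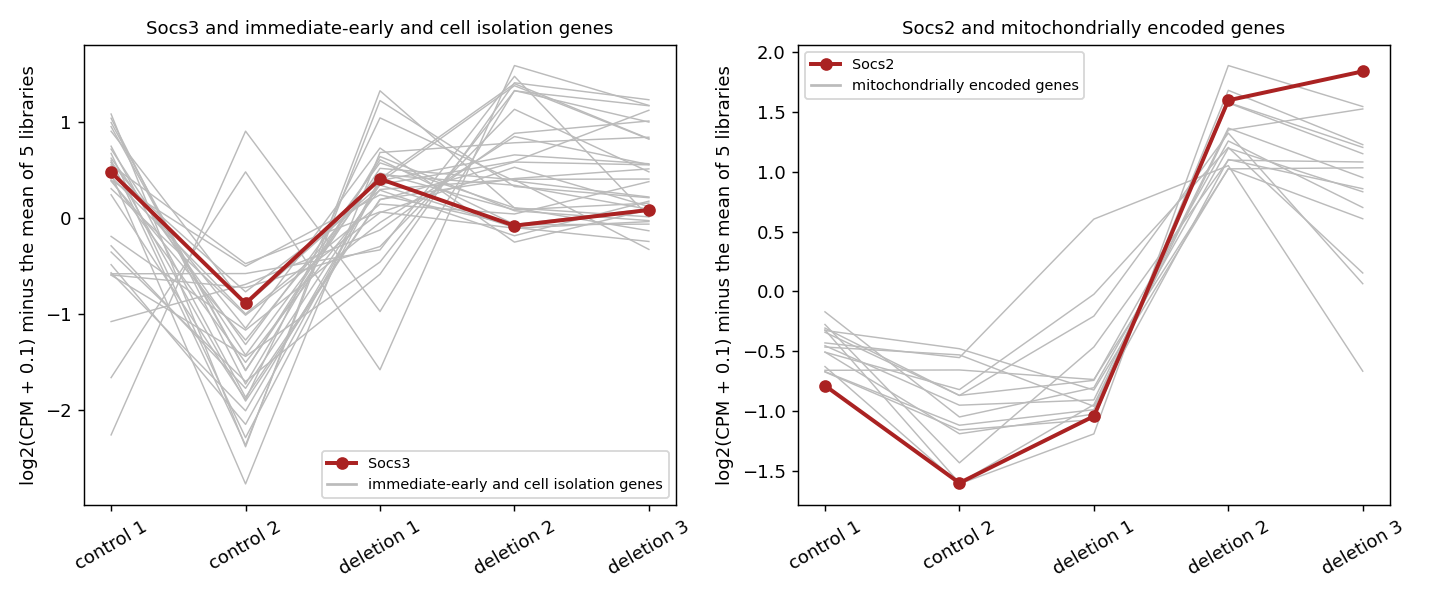
Each line is a gene, plotted as log2(CPM + 0.1) minus its mean over the 5 libraries (vertical axis), with the libraries along the horizontal axis. The left panel shows Socs3 (red) with the 32 immediate-early and cell isolation genes (grey), most of which are lowest in control replicate 2, and the right panel shows Socs2 (red) with 15 mitochondrially encoded genes (grey), most of which are highest in deletion replicates 2 and 3.

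Socs1 (chromosome 16, 10782240 to 10785536), the inhibitor of interferon receptor signalling whose promoter is printed above, was low in every library. It measured 4.42, 4.87 and 3.77 CPM in deletion replicates 1 to 3, where the controls had 2.77 and 2.63 CPM. Each deletion library was above both controls. The difference was 1.61-fold and did not pass (log2 fold change 0.69, SE 0.37, 95% interval -0.18 to 1.55, edgeR adjusted p = 0.319). These levels rest on 37 to 62 counts per library. The log2 value ranged from 0.55 to 0.79 over 16 alternative fits, none of which called it.

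Socs2 (chromosome 10, 95385362 to 95417180), which restrains growth hormone signalling, was higher in 2 of the 3 deletion libraries but not in the third. The controls had 0.64 and 0.321 CPM, with 0.52 CPM in deletion replicate 1 and 3.77 and 4.48 CPM in deletion replicates 2 and 3. Deletion replicate 1 thus lay between the controls, and only replicates 2 and 3 were high. The log2 fold change was 2.59 (SE 0.99, 95% interval 0.26 to 4.91, edgeR adjusted p = 0.207), and 2.54 without the filter on low counts (adjusted p = 0.0217). Without deletion replicate 1 it was 3.06 (adjusted p = 0.00655), in a fit that called 32.4% of all genes. With the mitochondrial share of each library as a term it was 0.56 (adjusted p = 0.87). That share was high only in deletion replicates 2 and 3, so the fit cannot separate it from whatever else those libraries share.

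The libraries with high Socs2 were those with the high mitochondrial share. In both of them 14 of 15 mitochondrially encoded genes had their highest levels, against 28.9% of all genes. That share is the sum of the same genes, so this count restates it and is no separate result. Markers of astrocytes and oligodendrocytes were also higher in these libraries, while those of neurons and endothelial cells did not share the pattern. The 5 astrocyte markers summed to 172 and 247 CPM in the controls, 187 CPM in deletion replicate 1 and 388 and 382 CPM in replicates 2 and 3, and each of the 5 was highest in the last 2 libraries. The 5 oligodendrocyte markers summed to 190 and 213 CPM in the controls and to 252, 340 and 340 CPM in deletion replicates 1 to 3. Of 4 tested neuron markers 1 (Tubb3) was highest in both libraries and of 4 endothelial markers 0 were. Tubb3 passed the filter on low counts only through these same libraries, and Syt1, another neuron marker, only through deletion libraries. The endothelial markers summed to 45.3 and 41.8 CPM in deletion replicates 2 and 3, below the 52.8 to 61.8 CPM of the other libraries, and Cldn5, Cdh5 and Flt1 were highest in deletion replicate 1. None of the markers on these lists had 0 counts in every library. The part of such cells in the Socs2 level was not tested. In bulk RNA, more cells of a type and more RNA per cell cannot be told apart.

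Cish (chromosome 9, 107296026 to 107302784), the founding member of the family and a target of STAT5, was the least abundant. Its counts were 8 and 4 in the controls and 10, 22 and 12 in the deletion libraries, or 0.569 and 0.257 CPM against 0.866, 1.73 and 1.22 CPM. The groups did not overlap. The log2 fold change was 1.61 (SE 0.76, 95% interval -0.18 to 3.41, edgeR adjusted p = 0.273), and 1.04 with the mitochondrial share as a term (adjusted p = 0.709). Cish was highest in deletion replicates 2 and 3, as Socs2 was. This held for 2 of the 8 members, against 28.9% of all genes tested. Those replicates have the high mitochondrial share, so that term cannot be separated from them. Without control replicate 2 the value was 1.10, and without control replicate 1 it was 2.23. Both genes annotated on the opposite strand across Cish exons, Gm17040 and Gm17041, had 0 counts in every library.

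Socs5 (chromosome 17, 87107679 to 87137839), which has been linked to interleukin-4 and EGF receptor signalling, was the member with the smallest p and the only one with a log2 fold change below 0. It had 37.8 and 34.6 CPM in the controls against 26.9, 20.4 and 19.4 CPM in deletion replicates 1 to 3. Every deletion library was below both controls. The controls averaged 36.2 ± 2.22 CPM (SD, n = 2) against 22.2 ± 4.07 CPM for the deletion group (SD, n = 3), a log2 fold change of -0.71 (SE 0.20, 95% interval -1.18 to -0.23). With an edgeR adjusted p of 0.131 (unadjusted 0.00974) it did not pass over all genes. Without the filter on low counts it was -0.74 (adjusted p = 0.0311), and by DESeq2 the adjusted p was 0.0585. The value was -0.42 (adjusted p = 0.499) with deletion replicates 2 and 3 omitted, which leaves 1 deletion library that is assumed to vary like the controls. It was -0.89 (adjusted p = 0.00475) without deletion replicate 1, where the groups coincide with the mitochondrial shares and cannot be told apart from them.

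Socs6, which binds the receptor kinases Kit and Flt3, measured 64.8, 42.9 and 40.1 CPM in deletion replicates 1 to 3, where the controls had 38.6 and 32.5 CPM. The groups did not overlap, and deletion replicate 1 was the highest library. The log2 fold change was 0.47 (SE 0.25, 95% interval -0.11 to 1.06, edgeR adjusted p = 0.312), and 0.20 without deletion replicate 1. Socs7 (chromosome 11, 97362551 to 97398542), an adaptor-binding member linked to insulin signalling, had 41.5 and 31.4 CPM in the controls against 45.9, 32.5 and 34.7 CPM in the deletion libraries. Socs4 (chromosome 14, 47276931 to 47296102), related to Socs5, measured 22.5, 28.1 and 23.8 CPM in the deletion libraries, where the controls had 19 and 28 CPM. For both genes the groups overlapped. Their log2 fold changes were 0.05 (95% interval -0.47 to 0.57) and 0.08 (95% interval -0.46 to 0.62), with edgeR adjusted p of 0.908 and 0.853. These intervals do not reach a change of 1 on the log2 scale in either direction. The direction of neither was stable when single libraries were left out.

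The pathway that the SOCS proteins restrain was then described through lists of its other genes. Among 30 cytokines and hormones that signal through JAK kinases, 8 were abundant enough to be tested. Against 2.08% and 0.507% of all genes, 2 of them rose and 0 fell. Both, Ifnb1 and Il12b, passed the filter on low counts only through the deletion libraries, where they were high, so this count describes those genes and not the list. A further 12 had 0 counts in every library. Ifnb1, interferon beta, had 0 counts in both controls and 100 in the deletion libraries, at least 29-fold higher when set against 3 counts over both controls together. Il12b, the p40 subunit of interleukin-12 and interleukin-23, had 4 counts in the controls (3 and 1) against 226, 69 and 106 in the deletion libraries (log2 fold change 6.36, SE 0.83, edgeR adjusted p = 0.0148). The adjusted p of Ifnb1 was 0.0267, and by limma-voom neither gene passed (adjusted p = 0.0568 and 0.19). Ifnb1 was also lost without deletion replicate 2 (0.0641), without replicate 3 (0.0795) and without both (0.106). Osm, oncostatin M, a ligand of gp130 receptors, had 73.8 and 29.7 CPM in the controls against 153, 152 and 192 CPM, but missed the threshold (adjusted p = 0.0753).

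Of 26 tested receptor genes, 3 rose and 0 fell, against 2.08% and 0.507% of all genes. The median log2 fold change of the receptors was 0.22, with Il12rb1 tested only through its deletion counts. The common gamma chain Il2rg rose from 6.06 ± 1.40 to 48 ± 4.31 CPM (7.93-fold, log2 fold change 2.99, SE 0.23, edgeR adjusted p = 0.00249). Il12rb2, a subunit of the interleukin-12 receptor, rose 3.17-fold (adjusted p = 0.0306), and Il3ra, the interleukin-3 receptor alpha chain, rose 3.15-fold (adjusted p = 0.0453). Both were lost by limma-voom (0.0532 and 0.0766) and without deletion replicate 3 (0.0973 and 0.135). Il12rb2 was also lost without deletion replicate 2 (0.0641), and Il3ra under DESeq2 size factors (0.0504) and with the length trend removed (0.0553). The gp130 subunit Il6st, bound by SOCS3, had 437 and 507 CPM in the controls against 323, 331 and 322 CPM in the deletion libraries (log2 fold change -0.54, adjusted p = 0.123). The interferon gamma receptor chain Ifngr1 was at 1132 ± 24.8 CPM in the controls and 950 ± 42.9 CPM in the deletion libraries (adjusted p = 0.325). Growth hormone receptor, Ghr, the receptor on which SOCS2 acts, was at or below 0.611 CPM in every library and was not tested.

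None of the 4 JAK kinase genes passed by edgeR, where 2.59% of all genes tested passed. At an unadjusted p under 0.05 there were 0 as well, against 21% of all genes. Jak1 measured 368, 232 and 215 CPM in the deletion libraries, where the controls had 427 and 356 CPM (log2 fold change -0.53, adjusted p = 0.283). Among the STAT genes, Stat2, which mediates responses to type I interferons, had 32.4 and 28.2 CPM in the controls against 117, 51.3 and 68.6 CPM in the deletion libraries and missed the threshold (edgeR adjusted p = 0.103). Stat3, which drives Socs3, and Stat5a and Stat5b, which drive Cish and Socs2, also missed the threshold, with log2 fold changes of -0.35, 0.06 and -0.34.

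The 19 STAT3 targets, a list that includes Socs3, had a median log2 fold change of 0.24, with Saa3 tested only through its deletion counts. Against 2.08% and 0.507% of all genes, 2 of them rose and 0 fell. These were Bcl3, a nuclear IkB protein (4.37-fold), and Il1rn, the interleukin-1 receptor antagonist (8.03-fold), with edgeR adjusted p of 0.0162 and 0.0451. Il1rn was lost by limma-voom (0.0968) and without deletion replicate 2 (0.107) or 3 (0.0648), and Bcl3 without deletion replicate 3 (0.0638). Of 11 tested STAT5 targets, a list that includes Cish and Socs2, 0 passed by edgeR. An unadjusted p under 0.05 was reached by 5, all higher, against 21% of all genes in either direction. Cish, Socs2 and Id1 of this list passed the filter only through the deletion libraries. Among them Osm had the smallest p, and Pim1, a survival kinase, had 14.9 and 9.49 CPM in the controls against 27.3, 21 and 30.5 CPM in the deletion libraries (adjusted p = 0.0956). Of 5 tested STAT6 targets 0 passed, also at an unadjusted p under 0.05.

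Against 2.08% and 0.507% of all genes, 1 of 16 other inhibitors of JAK-STAT signalling rose and 0 fell (median log2 fold change -0.21). This was Usp18, a protease that removes ISG15 and blocks the interferon alpha and beta receptor. It measured 148, 67.7 and 73.3 CPM in deletion replicates 1 to 3, where the controls had 10 and 11.4 CPM (8.97-fold, log2 fold change 3.17, SE 0.40, edgeR adjusted p = 0.0134). Every deletion library was above both controls. Its 95% interval begins at 2.22, above the 1.55 at which that of Socs1, another inhibitor of interferon signalling, ends; the difference between the genes was not tested. The phosphatase gene Dusp3 and the adaptor gene Sh2b3 had log2 fold changes of -0.60 and -0.49 (adjusted p = 0.156 and 0.181).

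No gene of the machinery with which SOCS proteins work passed the test, which 2.59% of all genes passed. Of 12 genes for the ubiquitin ligase that the SOCS box recruits, 0 passed by edgeR. An unadjusted p under 0.05 was reached by 3, against 21% of all genes. The scaffold Cul5 and the ring protein Rnf7 had log2 fold changes of -0.24 and 0.05, and the elongins Elob and Eloc 0.69 and 0.02 (adjusted p from 0.183 to 0.944). Nedd8, the modifier that activates cullins, had the smallest p of this list (log2 fold change 0.66, adjusted p = 0.126). Of 20 tested genes for other SOCS box proteins 0 passed (2 at an unadjusted p under 0.05, against 21% of all genes). Of 15 tested substrates and partners outside the JAK-STAT pathway 0 passed. At an unadjusted p under 0.05 there were 4, all lower, against 21% of all genes in either direction. The insulin receptor substrate Irs2, which SOCS1 and SOCS3 target for degradation, had 27.2 and 20.5 CPM in the controls against 59.4, 13.4 and 23.9 CPM in the deletion libraries (adjusted p = 0.658).

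**Figure D4:**
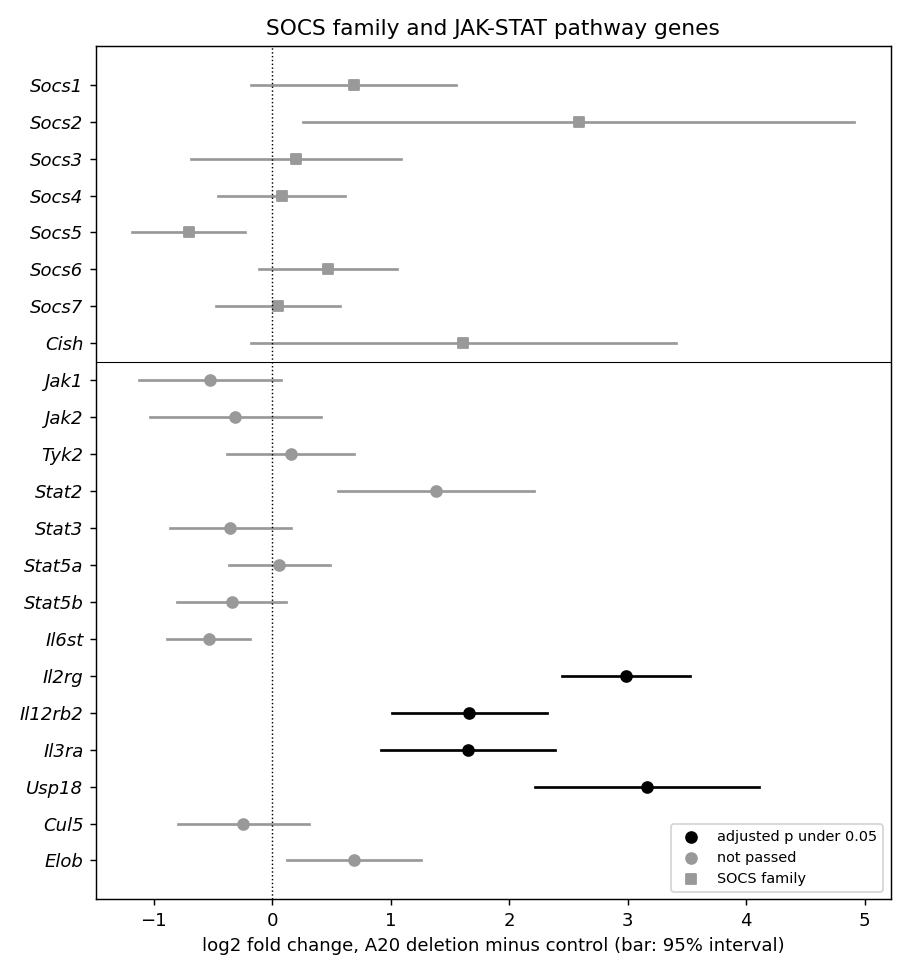
Log2 fold change of A20 deletion minus control (horizontal axis) with its 95% interval for the 8 SOCS genes (squares) and 14 JAK-STAT pathway genes (circles). Black marks an edgeR adjusted p under 0.05, which Il2rg, Il12rb2, Il3ra and Usp18 reached and the SOCS genes did not.

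Leaving out a control leaves 1 control library, which is then assumed to vary like the deletion libraries, and few genes of any kind were called. Without control replicate 2 edgeR called 0 genes (1323 at an unadjusted p under 0.05), and without control replicate 1 it called 18 of 12988 genes (0.139%). Leaving out control replicate 1, Usp18 had a log2 fold change of 3.03 (adjusted p = 0.146), and Il2rg stayed past the threshold at 3.20 (adjusted p = 0.0475). Leaving out control replicate 2, the values were 3.21 for Usp18 (adjusted p = 0.201) and 2.71 for Il2rg (adjusted p = 0.0696). Il12rb2 was at 1.53 and 1.71 without control replicates 1 and 2, Il3ra at 1.79 and 1.44, Bcl3 at 2.34 and 1.85, Il1rn at 2.57 and 3.51 and Il12b at 7.29 and 5.69. These 5 genes and Ifnb1 were not called in either fit. Each of these genes kept its direction in every such fit.

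Genes whose levels varied over the 5 libraries most like a member were sought among 8200 tested genes, by the root mean square difference of log2 CPM after each gene was centred on its own mean. For Socs3 these were Kif5b, Jund and Cited2, at differences of 0.0895 to 0.102. Jund, an AP-1 subunit, measured 662, 476 and 611 CPM in the deletion libraries, where the controls had 759 and 317 CPM. For Socs2 they were mt-Nd4, Zc3h6 and mt-Cytb (0.221 to 0.301), of which mt-Nd4 and mt-Cytb are mitochondrially encoded. For Cish they were Egr3, Zfp991 and Cd83 (0.13 to 0.17), and for Socs1 Scly, Cdk5rap1 and Rtl8c (0.0532 to 0.0768). Socs5 was closest to Wasf2, Sbf2 and Atp2c1 (0.0214 to 0.0343), with Wasf2 at 796 and 734 CPM in the controls, against 576, 422 and 400.2 CPM in the deletion libraries. Socs6 was closest to Ptk2b, Tlr3 and Irf1 (0.065 to 0.0819). All of these had their highest level in deletion replicate 1. Socs7 was closest to Eif3a, Vps41 and Rbm19 and Socs4 to Tmem143, Cops5 and Tbcc, at differences of 0.0286 to 0.0413 and 0.0471 to 0.0533. With 5 libraries many genes share a pattern, so these lists are descriptions.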

How the data were processed

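The deposited values are raw read counts per Ensembl gene in 1 table with a column per library. Build GRCm38 and the tools DESeq2 1.22.1, featureCounts and STAR 2.4.0j are named for the authors' processing, per the submitters' processing notes. Which annotation was counted, whether strand was used and how multi-mapping reads were handled is not given in the sources used here. Symbols and exon lengths came from GENCODE M21, which matched 40340 of 41388 identifiers; the 1048 others stayed in the tests.

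Counts were filtered with filterByExpr (minimum count 10, minimum total 15; 12240 genes kept), scaled by TMM and tested in R 4.3.3 with edgeR 4.0.16 (quasi-likelihood, two-sided, no covariate), with Benjamini-Hochberg adjustment over all genes. CPM use the scaled library totals, in which 3 counts equal 0.192 to 0.306 CPM. Standard errors are the log2 fold change over the square root of F, and 95% intervals use the fit's degrees of freedom. The members and gene lists were chosen with earlier results of these data known. The text names all members, Tnfaip3, up to 4 genes per list with the smallest p or with a textbook relation to SOCS proteins, and the 3 genes closest to each member in pattern (mean log2 CPM of at least 3, prior count 2). The procedure was tested on simulated data. Alternatives were other scalings and filters, DESeq2 1.42.0, limma-voom (limma 3.58.1), a robust fit, the replicate number as a block, a mitochondrial term, a length correction and leaving out libraries. Some pathway results are not reported here.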

Additional observations from a re-analysis of the deposited data

How the results depend on the processing

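The number of SOCS members called was 0 in every fit except 2: without the filter on low counts, and without A20 deletion replicate 1, it was 2 (Socs2 and Socs5). It was also 2 at an unadjusted p under 0.05, and 0 to 2 over the fits that leave out 1 library. Genes called higher numbered 255 and lower 62. They numbered 1048 and 653 with no filter, 668 and 342 by DESeq2, 166 and 45 by limma-voom, and 0 to 1902 and 0 to 2021 leaving out 1 library. The cause of these changes was not tested.

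Direction reversed for 3 members with small fold changes. Leaving out 1 library, Socs3 ranged from -0.38 to 0.9996, Socs4 from -0.22 to 0.34 (-0.01 without A20 deletion replicate 2) and Socs7 from -0.19 to 0.22 (-0.14 without A20 deletion replicate 1), and Tnfaip3 from -0.62 to 1.65. Socs4 was at -0.0506 with the mitochondrial term and at -0.0499 with A20 deletion replicates 2 and 3 omitted. Socs1, Socs2, Socs5, Socs6 and Cish kept their direction in every fit that tested them. Socs1, Socs2 and Cish were not tested under the stricter filter, nor Socs2 without A20 deletion replicate 2 or 3 or both. Of 339 alternative fits of the 20 called pathway and marker genes, 282 stayed past the threshold, 57 did not and 0 reversed.

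The labels give both groups a replicate 1 and 2, but nothing says that a number marks a shared animal or day, and with 2 pairs the correlations of deviations (0.26 and 0.17) settle nothing. With the replicate number as a block 228 genes were higher and 32 lower, and 0 members were called. Cish, Socs2 and Socs1 rest on the fewest counts, at most 62 per library.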
